A study of Mus musculus with 8 samples.

Results

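Enzymes that make, reactivate, reduce or conjugate steroid hormones were followed in inguinal mammary gland tissue of gonadectomized mice after 1 injection of 17β-estradiol (E2). The set had 8 genes, chosen by name around Akr1c14 with the values of these arrays already known. It comprised all probe sets annotated to those names, which were 9 of the 45037 probe sets that were not array controls. These 9 probe sets covered 6 of the 8, out of 18204 genes with a probe set of their own, namely Akr1c14, Akr1c18, Hsd11b1, Hsd17b11, Hsd17b4 and Sult1e1. The other 2, Cyp19a1 and Srd5a1, had no probe set under their symbols in the platform annotation used here, so no level is given for them. Because the choice used the E2 and vehicle values, the differences of these enzymes from vehicle are a description and were not tested.

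All mice were virgin, gonadectomized and 12 to 13 weeks old. The E2 groups received E2 under the skin 1, 3, 6, 12, 18 or 24 h before tissue was taken, with 1 array at each of these 6 times. The vehicle group had 2 arrays, both titled 24 h. The times are those of the sample titles, whereas the sample descriptions read 24 h throughout, and the dose label carries conflicting units, so no dose is given. Gonadectomy removes the source of ovarian steroids, and no steroid level was available here. The labels name neither the strain nor the number of mice behind an array, and p-values given further on measure only the spread between arrays. Because the vehicle arrays belong to 24 h only, E2, the injection and the time of day cannot be told apart as sources of a difference at 1 to 18 h.

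Tissues tune their exposure to steroids by converting them locally. Progesterone and testosterone are reduced at the 5α position by 5α-reductases such as Srd5a1, and the products are reduced further at the 3α position by aldo-keto reductases such as Akr1c14. Akr1c18, the mouse 20α-hydroxysteroid dehydrogenase, converts progesterone to a weakly active 20α-reduced form and is best known from the ovary, where it ends the progesterone supply before birth. Other enzymes act on glucocorticoids (Hsd11b1) or on estrogens: Cyp19a1 (aromatase) makes them, Hsd17b4 can oxidise estradiol, and Sult1e1 couples estrogens to sulfate.

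Akr1c14 and Akr1c18 lie next to each other on chromosome 13, at 1 end of a run of 9 Akr1 genes, with 0 protein-coding genes between them in the gene order of RefSeq (mouse GRCm38.p6). Their promoter windows are shown because these neighbours were both highest on the same array, that of 6 h. Each window is the 250 bases before a RefSeq start site, from RefSeq on GRCm38.p6, written 5′ to 3′ on the gene's own strand. The Akr1c14 window is chr13:4059341-4059590 on the plus strand and the Akr1c18 window is chr13:4150647-4150896 on the minus strand. Capitals mark the 3 longest runs of bases, of 8 bases each, that both windows hold.
Akr1c14: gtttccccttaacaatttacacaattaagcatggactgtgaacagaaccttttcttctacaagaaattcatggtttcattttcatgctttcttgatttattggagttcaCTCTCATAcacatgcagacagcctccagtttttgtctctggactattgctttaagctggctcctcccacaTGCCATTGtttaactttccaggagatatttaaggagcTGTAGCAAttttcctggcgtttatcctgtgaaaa
Akr1c18: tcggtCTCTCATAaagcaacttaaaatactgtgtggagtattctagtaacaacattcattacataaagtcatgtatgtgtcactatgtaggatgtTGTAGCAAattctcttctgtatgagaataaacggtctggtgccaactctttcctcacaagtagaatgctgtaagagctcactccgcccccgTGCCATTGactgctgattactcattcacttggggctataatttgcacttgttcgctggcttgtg

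The run TGCCATTG lay at a similar distance from both starts, with its first base at position -71 of Akr1c14 and -64 of Akr1c18. It occurred on the same strand in 0.457% of the 32851 promoter windows of this length. The runs CTCTCATA and TGTAGCAA lay at unlike distances, and 0.237% and 0.283% of windows held them. The runs were picked because both windows hold them, so these shares are no test of a shared element, and nothing is read from them. Both windows were also searched on both strands for the estrogen response element GGTCANNNTGACC, its half-site GGTCA, the AP-1 element TGANTCA, the hormone response element GNACANNNTGTNC that glucocorticoid and progesterone receptors share, its half-site TGTTCT, and the antioxidant response core TGACNNNGC. Each half-site lies inside or overlaps the letters of its full element. None of the 6 was found in either window. The shares of all windows with a match were 0.0639%, 35.2%, 6.75%, 0.387%, 16.1% and 10.2% in the same order. These searches say only that the letters are not in these 250 bases.

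Akr1c14, the mouse 3α-hydroxysteroid dehydrogenase, was the enzyme of the set that differed most from vehicle. Its intensity was 238.2 and 233.7 on the vehicle arrays, and after E2 it was 236.5 (1 h), 285.5 (3 h), 502.4 (6 h), 309.6 (12 h), 248.6 (18 h) and 241.0 (24 h). The 6 h array stood alone, the 12 h and 3 h arrays came next, and the 1 h array lay between the vehicle arrays. The 6 h array exceeded the vehicle mean by a log2 difference of 1.09, or 2.13-fold, and the single vehicle arrays by 1.08 and 1.10. The vehicle arrays differed by 0.03 for this probe set. Over all probe sets, the difference between the vehicle arrays had an SD of 0.136. The Akr1c14 differences of 0.28 at 3 h and 0.39 at 12 h exceeded both that SD and the vehicle gap. The 0.08 at 18 h exceeded the gap and not the SD, and the 0.03 at 24 h was close to the gap. In order, the levels ran 6 h, 12 h, 3 h, 18 h, 24 h, vehicle 1, 1 h and vehicle 2, and the last 4 differed by no more than that SD. Of the 45037 probe sets, 54 had a larger positive difference than Akr1c14 at 6 h, 111 at 12 h and 822 at 3 h.

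**Figure D1:**
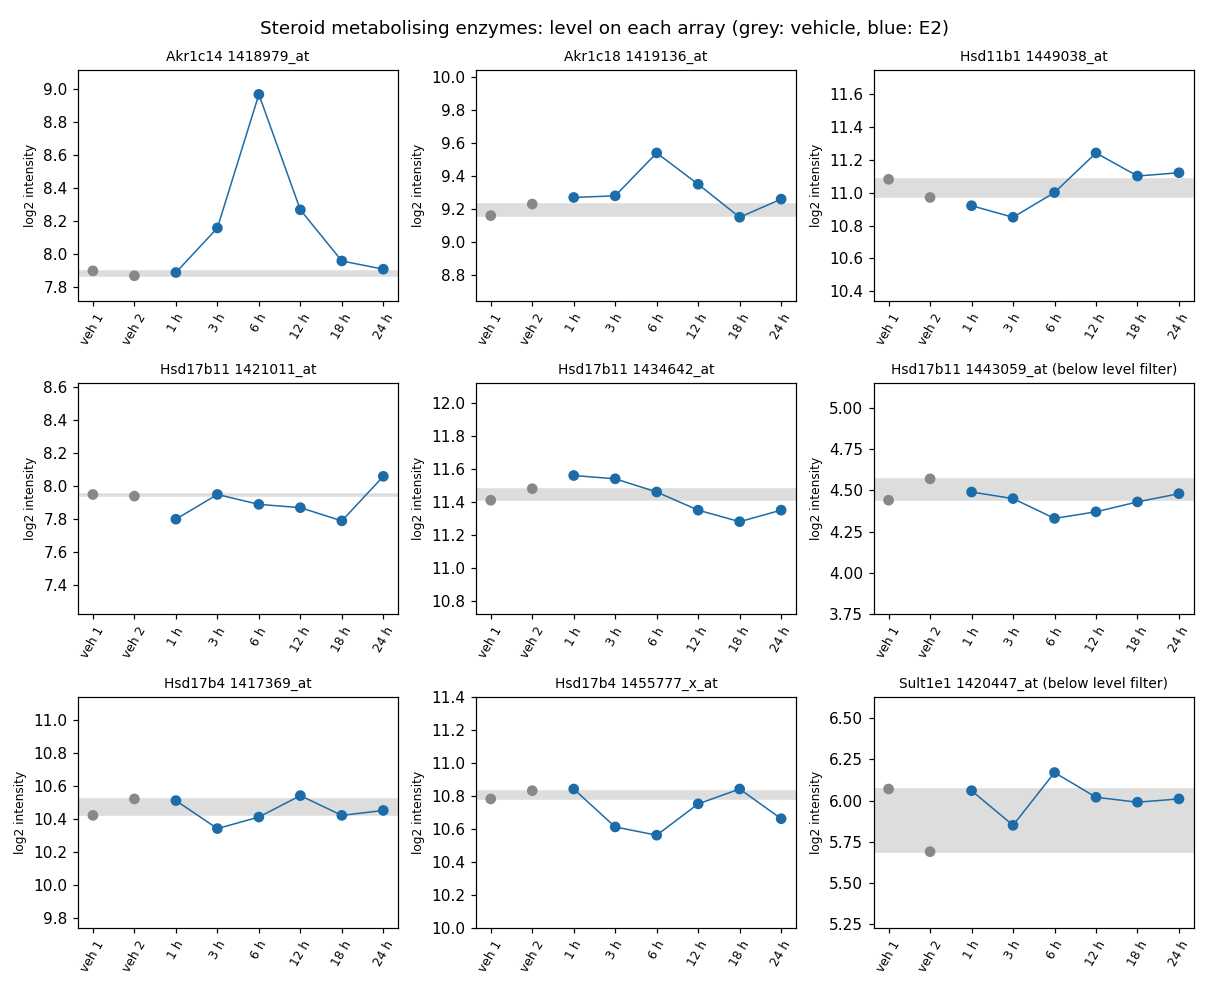
Level (log2 intensity) of each of the 9 probe sets on each array, with the vehicle arrays as grey points, the E2 arrays as blue points in order of time, and a grey band between the vehicle arrays; there is 1 array per point and all panels span the same log2 range. Akr1c14 peaked at 6 h, 1.09 above the vehicle mean, while the probe sets other than those of Akr1c14, Akr1c18 and Sult1e1 stayed within 0.25 of it.

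Akr1c18 followed the same outline at a smaller size. Its intensity was 571.4 and 602.0 on the vehicle arrays and 617.5, 620.9, 744.7, 652.6, 567.4 and 612.6 on the E2 arrays in order of time. The 6 h array was again highest and the 12 h array second, and the 18 h array was the lowest of all 8. The log2 difference at 6 h was 0.34 from the vehicle mean (1.27-fold) and 0.38 and 0.31 from the single vehicle arrays, which differed by 0.08. At 12 h it was 0.15, and at the other times it lay between -0.05 and 0.08. At 6 h, 573 probe sets had a larger positive difference. Over the 8 arrays the log2 levels of Akr1c14 and Akr1c18 had a Pearson r of 0.92, which fell to 0.30 over the 6 arrays left without 6 h and 12 h.

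The 6 h differences of the neighbouring Akr1c genes were smaller. The 6 other Akr1c genes of the run had 7 probe sets, of which 2 passed the filter on low levels (a mean log2 level over all arrays of at least 6.97, the 40th percentile). Their differences at 6 h lay between -0.11 and 0.21, and 5 of the 7 were above both vehicle arrays, where 39.3% of all probe sets were. At no time did any of the 7 (0 of 7) reach 1.5-fold from both vehicle arrays. Few probe sets did so at 6 h (0.306% of all higher and 0.0999% lower), so nothing is read from that count. Akr1c genes are close paralogs, and how far a probe set takes up transcripts of another was not tested. Akr1cl, a relative on chromosome 1 singled out after its values were seen, lay 0.37 above vehicle at 3 h and 0.45 at 6 h in 1 probe set, where the vehicle arrays differed by 0.26. It was not called in limma at 6 h. With arrays centred on their median it was called, in a fit where calls rose over all probe sets as well. It lay at 0.12 and 0.08 in a further probe set below the level filter.

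Hsd11b1, which reactivates glucocorticoids from their inert 11-keto forms and is known from adipose tissue, was lowest at 3 h and highest at 12 h. The vehicle arrays had intensities of 2164.4 and 2005.1, and the E2 arrays had 1931.1 (1 h), 1849.8 (3 h), 2050.6 (6 h), 2415.4 (12 h), 2190.1 (18 h) and 2230.3 (24 h). The 1 h and 3 h arrays lay below both vehicle arrays and the 12, 18 and 24 h arrays above both. In log2 terms the 3 h array was at -0.17 and the 12 h array at 0.21 from the vehicle mean, with a vehicle gap of 0.11. The differences at 1, 6, 18 and 24 h were -0.11, -0.02, 0.07 and 0.10, of the order of that gap or smaller.

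Hsd17b11, a lipid droplet enzyme that oxidises the 17β-hydroxyl of androgen metabolites, had 3 probe sets that did not move together. The probe set 1434642_at had intensities of 2714.9 and 2862.2 on the vehicle arrays and 3013.6, 2987.1, 2821.1, 2610.4, 2491.5 and 2606.7 on the E2 arrays in order of time. It was above both vehicle arrays at 1 and 3 h and below both from 12 h on, with log2 differences from 0.11 at 1 h to -0.16 at 18 h and a vehicle gap of 0.08. The probe set 1421011_at lay at -0.15 at 1 h and at 18 h and at 0.12 at 24 h, with a vehicle gap of 0.02. The remaining one, 1443059_at, was below the level filter, with its lowest array at 6 h (-0.18) and a vehicle gap of 0.13. Over the 8 arrays the Pearson r between these probe sets lay at -0.04, 0.23 and 0.25.

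Hsd17b4, the peroxisomal multifunctional enzyme of fatty acid oxidation that also oxidises estradiol, had 2 probe sets. The probe set 1455777_x_at was lowest at 6 h and 3 h, with an intensity of 1504.6 and 1558.6 at these times, against 1759.5 and 1825.7 on the vehicle arrays. These were differences of -0.25 and -0.20 on the log2 scale, with a vehicle gap of 0.05, and the other times lay between -0.15 and 0.03. The probe set 1417369_at was lowest at 3 h (-0.13) and lay between -0.06 and 0.06 at the other times, with a vehicle gap of 0.10. The probe sets had an r of 0.60 over the 8 arrays.

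Sult1e1, the estrogen sulfotransferase, was below the level filter, and its vehicle arrays stood farther apart than those of any other probe set of the 9. Its intensity was 67.3 and 51.6 on the vehicle arrays and between 57.6 at 3 h and 71.8 at 6 h on the E2 arrays. The 6 h array was the highest of the 8, at 0.09 and 0.48 above the single vehicle arrays on the log2 scale, and the other 5 E2 arrays lay between the vehicle arrays. The vehicle gap of 0.38 exceeded the difference of every E2 array from the vehicle mean, which was 0.29 at most.

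As a set, 7 of the 9 probe sets passed the level filter, and Akr1c14 at 6 h was the single case that lay 1.5-fold or more above, or below, each of the vehicle arrays. That was 1 of 9 higher and 0 of 9 lower at 6 h, where 0.306% of all probe sets were higher and 0.0999% lower by this rule. At 1, 3, 12, 18 and 24 h there were 0 of 9 in either direction. Of all probe sets 0.124%, 0.306%, 0.0777%, 0.0688% and 0.0977% were higher at those 5 times, and 0.0178%, 0.14%, 0.0333%, 0.0244% and 0.04% were lower. Without a size limit, 3, 3, 3, 4, 3 and 4 of the 9 were above both vehicle arrays at the 6 times, where 33.2%, 31.5%, 39.3%, 32.6%, 37.1% and 40% of all probe sets were. Below both lay 2, 3, 4, 4, 4 and 2 of the 9, against 29.4%, 29.5%, 28.6%, 27.8%, 31.2% and 32.7% of all. The median difference of the 9 probe sets stayed between -0.05 and 0.06, and that of all probe sets between 0.002 and 0.017. These counts use the contrast by which the enzymes were chosen, so nothing is read from them.

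Markers of a mammary fat pad were present: all 10 measured adipocyte markers and all 9 fibroblast markers were at or above the 75th percentile of all probe sets. So were 7 of 13 luminal epithelial and 2 of 9 myoepithelial markers. The lower level filter was passed by 12 of 13 luminal epithelial and 8 of 9 myoepithelial markers. In such bulk tissue, fewer cells of a type and less RNA per cell cannot be told apart. Skeletal muscle markers (12 of 12 genes above both vehicle arrays at 6 h) averaged 1.35 above the vehicle mean at 6 h, with a vehicle gap of 0.47. Their summed intensity was between 15190 and 30715 on the E2 arrays and between 10961 and 14606 on the vehicle arrays. They and Akr1c14 were highest on the same 6 h array. In order of time the muscle markers averaged 0.78, 0.62, 1.35, 0.26, 0.78 and 1.07, and Akr1c14 lay at 0.00, 0.28, 1.09, 0.39, 0.08 and 0.03. The part of muscle tissue in the Akr1c14 and Akr1c18 differences was not tested.

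The other marker lists lay closer to vehicle at 6 h, where 39.3% of all probe sets were above both vehicle arrays. Myoepithelial markers averaged 0.17 (6 of 9 above both vehicle arrays), with a summed intensity of 6141 at 6 h, against 5370 and 5612 on the vehicle arrays. Fibroblast markers averaged 0.11 (8 of 9 above both vehicle arrays) and macrophage markers 0.14 (9 of 10), with summed intensities of 89366 and 48006 at 6 h, against 83080 to 84082 and 43540 to 43813 on the vehicle arrays. The part of these 3 cell types was not tested either. At 6 h adipocyte markers averaged -0.10, lymphocyte markers -0.10, endothelial markers -0.05 and luminal epithelial markers -0.14. Beside the Hsd11b1 peak at 12 h, adipocyte markers averaged 0.03 (4 of 10 above both vehicle arrays), with summed intensities of 84775 at 12 h and 79725 and 85841 on the vehicle arrays. Luminal epithelial markers averaged 0.35 at 12 h (9 of 13), with summed intensities of 12835 at 12 h and 8883 and 9126 on the vehicle arrays. At 12 h, 32.6% of all probe sets were above both vehicle arrays. Skeletal muscle, myoepithelial, lymphocyte and endothelial markers averaged 0.26, 0.23, 0.09 and 0.01 at 12 h. Fibroblast and macrophage markers averaged -0.08 and -0.13. The part of any of these cell types in the Hsd11b1 difference was not tested.

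**Figure D2:**
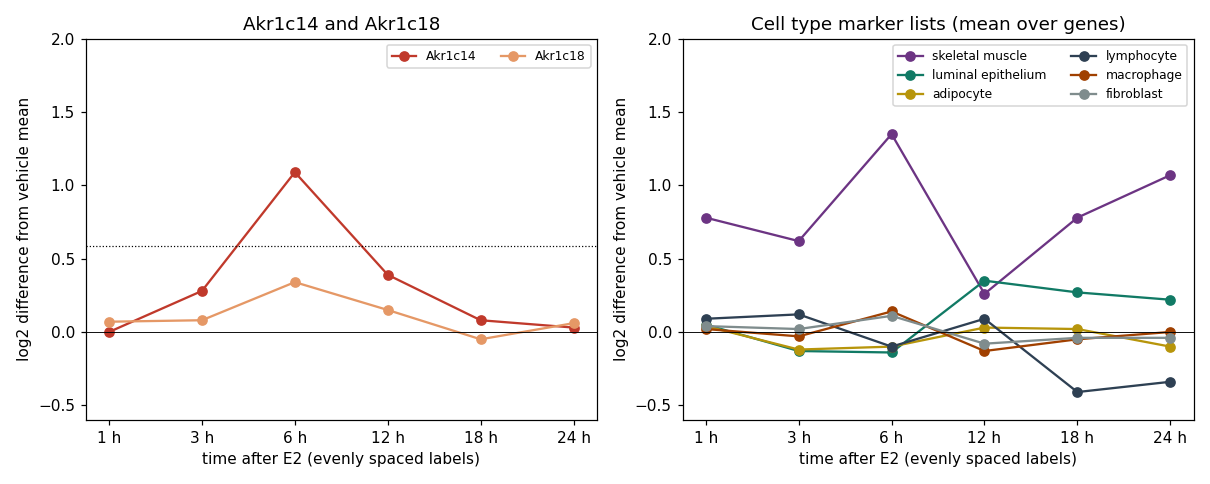
Log2 difference from the vehicle mean at each time after E2 for Akr1c14 and Akr1c18 (left, with the 1.5-fold line dotted) and for the mean of 6 marker lists (right), with 1 array per time and evenly spaced time labels. Both Akr1c14 (1.09) and skeletal muscle markers (1.35) were highest at 6 h, and at 24 h they stood at 0.03 and 1.07.

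Other genes of steroid metabolism, and the steroid receptors, came from 6 lists of 103 genes taken from textbook pathways. The lists and tests were chosen with earlier results of these data known, so their p-values are no independent check. Of the 103 genes, 84 had 144 probe sets, and 87 probe sets passed the level filter. These 87 were tested in limma over 27022 probe sets with Benjamini-Hochberg adjustment. The windows were early (1, 3 and 6 h, n = 3) and late (12, 18 and 24 h, n = 3), against vehicle (n = 2). Arrays of different times stand as replicates within a window, so the spread of this fit also holds changes over time. A gene that moved at 1 time only may therefore go uncalled. In the early window against vehicle 0 of 87 were called, where 0.0037% of all tested probe sets were called. At an unadjusted p below 0.05 there was 1 of the 87 (1.15%), against 5.25% of all. In the late window against vehicle 0 of 87 were called, where 0.0% of all were called. At an unadjusted p below 0.05 there were 7 of the 87 (8.05%), near the 7.7% of all. Late against early, 15 of the 87 had an unadjusted p below 0.05 (17.2%), near the 16.1% of all. After adjustment 1 of 87 was called, higher in the late window, where 0.311% of all were called. That was Cyp1a1, a cytochrome P450 that hydroxylates estradiol and a known target of the aryl hydrocarbon receptor, named after its values were seen. Its log2 levels were 8.21 and 7.87 on the vehicle arrays and 7.93, 7.77, 7.80, 8.29, 8.48 and 8.40 on the E2 arrays in order of time. The late arrays averaged 0.56 ± 0.0898 above the early arrays (SE, limma adjusted p = 0.0413, n = 3 against 3). Its call ended with quantile normalization, without a variance trend, and without the 3, 6, 12, 18 or 24 h array.

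Single times were tested in limma against the vehicle group. The vehicle arrays gave each probe set 1 residual degree of freedom. Its spread was drawn toward that of all tested probe sets, with 6.27 prior degrees of freedom. The p-values therefore rest mostly on this borrowed spread, and a lone E2 array was taken to vary in the same way. Of the 87, 1 was called for 3 h, where 0.581% of all tested probe sets were, and 3 for 6 h, where 0.385% were. None was called for 1, 12, 18 or 24 h, where 0.0629%, 0.0518%, 0.0111% and 0.0% of all were. For those 4 times 1, 4, 6 and 8 of the 87 had an unadjusted p below 0.05 (1.15%, 4.6%, 6.9% and 9.2%), where 3.26%, 3.86%, 5.23% and 7.26% of all tested probe sets did. All calls were among the steroid receptors. They were 1 probe set of Pgr, the progesterone receptor, higher at 3 h and at 6 h, and 2 of Esr1, the estrogen receptor alpha, lower at 6 h. Pgr exceeded the vehicle mean by 2.43 at 3 h and 1.60 at 6 h in log2 terms (limma adjusted p = 0.00163 and 0.00981), and the Esr1 probe sets lay at -1.59 and -0.99 (limma adjusted p = 0.00393 and 0.00793). In the 5 lists other than receptors, none of the 76 tested probe sets was called at any single time. With each array centred on its median, Akr1cl was called at 3 h and at 6 h, Cyp7b1 at 6 h and Cyp1a1 at 18 h. Calls over all probe sets rose at these times as well. Of the receptors named, the remaining Esr1 probe set, 1421244_at, lay at -0.39 at 6 h and was not called without this centring. The Pgr probe sets 1421444_at and 1455772_at, below the level filter, lay at 0.47 and 0.11 at 3 h and at 0.23 and 0.15 at 6 h.

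Among those enzymes, Cyp7b1, which hydroxylates oxysterols and steroids at the 7α position, was the single gene that passed 1.5-fold against each vehicle array at any time. Its probe set 1421074_at had log2 levels of 7.27 and 6.70 on the vehicle arrays and 6.79, 7.17, 7.92, 7.20, 7.11 and 7.10 on the E2 arrays in order of time. The 6 h array was the highest, as for Akr1c14, but the vehicle arrays themselves differed by 0.58. It exceeded the vehicle mean by 0.93 ± 0.214 (SE, log2, 1 array against 2) and was not called in limma. With arrays centred on their median it was called, in a fit where calls rose over all probe sets as well. A further probe set, 1421075_s_at, lay 0.48 above vehicle at 6 h and another, below the level filter, 0.19.

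The other enzyme lists lay within 0.45 of vehicle at all times. Genes of steroid synthesis from cholesterol, such as the side chain cleavage enzyme Cyp11a1 and the carrier Star, had 25 probe sets with differences from -0.22 to 0.35 over all times. The 24 probe sets of other aldo-keto reductases lay between -0.23 and 0.45, the 32 of other hydroxysteroid dehydrogenases and 5α-reductases between -0.27 and 0.33, and the 24 of conjugation and deconjugation between -0.28 and 0.25. At 6 h the medians of these lists were -0.005, 0.061, 0.006 and -0.024, and that of steroid hydroxylation by cytochrome P450 0.035, where the median of all probe sets was 0.017.

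**Figure D3:**
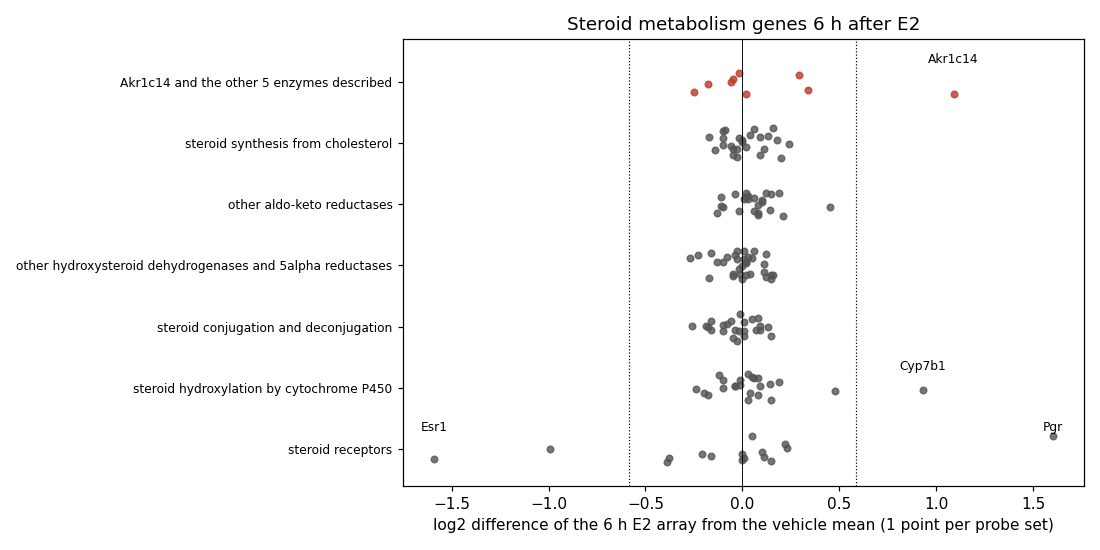
Log2 difference of the 6 h E2 array from the mean of the vehicle arrays for each probe set. The enzymes described are red, and 6 lists of steroid metabolism and steroid receptor genes are grey. Dotted lines mark 1.5-fold, and the vertical scatter is random. Akr1c14 (1.09) and Cyp7b1 (0.93) lie past the line among the enzymes, and Pgr (1.60) and Esr1 (-1.59) among the receptors.

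The profiles most like that of Akr1c14 were sought among 939 probe sets with 1 gene symbol that passed the level filter and spanned at least 1.5-fold over the arrays, by Pearson r of the log2 level over the 8 arrays, leaving out clone names. All points share the arrays, and the 6 h array carries most of the spread. The 5 highest were Gng12, a G protein gamma subunit (r = 0.987), Mt1, a metallothionein (0.976), the zinc finger gene Zfp503 (0.970), Nkain1 (0.952) and Epgn, an epidermal growth factor receptor ligand (0.947). At 6 h they lay 0.69, 0.57, 0.49, 0.59 and 0.72 above vehicle in log2 terms. Without the 6 h and 12 h arrays r was 0.96 for Gng12 and Nkain1, 0.75 for Mt1, 0.73 for Zfp503 and 0.53 for Epgn (6 arrays). The 3 lowest were Egflam (r = -0.964), the Esr1 probe set 1435663_at (-0.953) and the sphingomyelinase gene Smpd3 (-0.951), at -0.52, -1.59 and -0.93 from vehicle at 6 h. Without the same 2 arrays these were -0.92, -0.61 and -0.76. On the 6 arrays left, Akr1c14 had a log2 level of 8.16 at 3 h and 7.87 to 7.96 elsewhere. The r values over these 6 arrays therefore rest mostly on the 3 h array. Pgr (1439527_at) had an r of 0.97 over them and 0.63 over all 8.

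**Figure D4:**
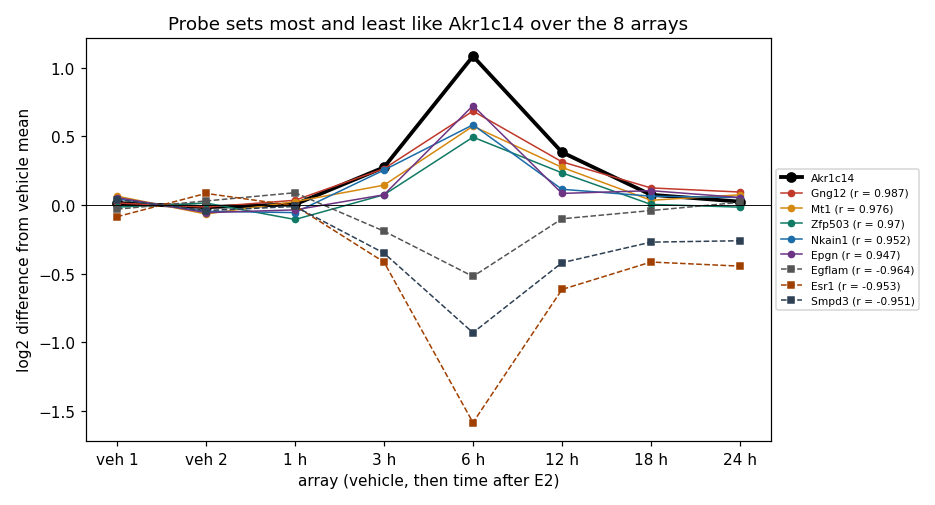
Log2 difference from the vehicle mean on each of the 8 arrays for Akr1c14 (black), the 5 probe sets with the highest Pearson r to it (circles, solid lines) and the 3 with the lowest (squares, dashed lines). Akr1c14 reached 1.09 at 6 h, Gng12 0.69 and Epgn 0.72, while Esr1 stood at -1.59.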

How the data were processed

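Biotin-labelled cRNA from total RNA was hybridised to 1-colour Affymetrix arrays, per the labels. GCOS 1.0 and RMA are named in the submitters' processing notes without role or order. The deposited values are intensity values on a linear scale, from 13.8 to 23591 over 45101 probe sets, with array medians of 173.9 to 180.5, and the sources used here do not give the scaling between arrays. They were used as deposited, after taking log2. No detection calls were used here, so a low level has no test against background, and the number of arrays limits the precision. The 64 control probe sets were left out. Of the others, 34957 had 1 gene symbol, 920 several and 9160 none in the platform annotation, and 34741 matched RefSeq (GRCm38.p6) by Entrez identifier, with 0 symbols changed. Genomic coordinates were used only for promoter windows and for the gene order around Akr1c14.

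Samples were grouped by their titles. Linear models were fitted in limma 3.58.1 (R 4.3.3) with a mean-variance trend over probe sets at or above the 40th percentile of the mean level, with 5 residual degrees of freedom for the windows and 1 for single times. A call was an adjusted p below 0.05, two-sided. The labels do not say that arrays came from separate mice, so the p-values may measure technical spread. In the window fit the spread also takes in differences between the times of a window. The script was tested on simulated data, in limma for the window fit only, with changes shared by all early arrays. The single-time fit was not tested in this way. The members, lists and tests were chosen with earlier results of these data known. Named were all probe sets of the members, up to 3 probe sets per list past 1.5-fold, and the 5 highest and 3 lowest r to Akr1c14. Markers were read from the probe set with the highest mean of each gene. The alternatives were other level filters, quantile normalization, arrays centred on their median, no trend, 1 probe set per gene, a 2-fold limit, and each array left out.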

Additional observations from a re-analysis of the deposited data

Results flagged for a closer look

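The probe set of Hsd11b1 lay below the vehicle mean on all 3 early arrays and above it on all 3 late arrays, with mean log2 differences of -0.10 in the early window and 0.13 in the late window. Hsd17b11 did the reverse in the probe set 1434642_at, with 0.08 in the early window and -0.12 in the late window, while its probe set 1421011_at averaged -0.07 and -0.04. The difference between the windows was not tested for these 2 genes, which were chosen with these values known. Cyp1a1 differed between the windows by 0.56 on the log2 scale, late minus early, in the limma fit (adjusted p = 0.0413). No group had enough arrays for a single array to be tested as lying apart from its group.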

How the results depend on the processing

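The count of probe sets of the described enzymes past 1.5-fold against each vehicle array (1 at 6 h, 0 at the other times) was the same with a 2-fold limit, quantile normalization, median centring, 1 probe set per gene, and against either vehicle array alone. Of the 54 differences of these probe sets from vehicle, scaling moved none by more than 0.07, and the sign turned in 4 of 108 cases, in differences of at most 0.05 in size. Calls in the pathway lists were less steady. Late against early, the count of 1 (Cyp1a1) became 0 with quantile normalization and 0 without a trend, and lay between 0 and 1 with each array left out, ending without the 3, 6, 12, 18 or 24 h array. Early against vehicle it lay between 0 and 1 with each array left out, where the 1 was Pgr without the 1 h array, and late against vehicle it stayed at 0. At single times, 1 probe set was called at 12 h without the level filter (Pgr). With median centring, where the estimated prior degrees of freedom became infinite, the counts became 3 (3 h), 8 (6 h), 2 (12 h), 3 (18 h) and 1 (24 h). They then took in Akr1cl (3 h and 6 h), Cyp7b1 (6 h) and Cyp1a1 (18 h) beside receptors, and the cause of these changes beyond that was not tested. The single-time fit has no residual degree of freedom without either vehicle array, and leaving out an E2 array was not run for it. No paired analysis was possible because each E2 time has 1 array without a replicate number in the labels. With 1 array per time and vehicle arrays of 24 h only, no time has a replicate check.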
